A study of Rattus norvegicus with 156 samples.

Results

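The genes described here belong to the cholesterol synthesis pathway and were followed through the nervous tissues of rats with an injured spinal nerve. They were taken by symbol: every probe set of Affymetrix rat U34 arrays A, B and C annotated to 1 of 8 listed genes was used. Probe sets were found for 7 of the 8 genes, Idi1, Fdps, Fdft1, Sqle, Cyp51, Dhcr7 and Insig1, of 10969 genes on the arrays, and Hmgcs1 was not analysed here because no probe set used here carried its symbol. The 7 genes had 26 probe sets, of which 25 passed the filter on weak signals, and 1 Idi1 probe set stayed under it in every sample. For each gene the brightest probe set, by mean log2 signal over all samples, is described first, and the other probe sets are given by count and direction.

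Cells build cholesterol from acetyl-CoA through the mevalonate pathway, whose isoprenoid products are joined to squalene, closed to a sterol ring and trimmed to cholesterol. Synthesis is governed by SREBP transcription factors, which the membrane proteins SCAP and INSIG release or hold back according to the sterol content of the endoplasmic reticulum. In the nervous system most cholesterol is made locally, and myelin, laid down by Schwann cells in nerves and by oligodendrocytes in brain and spinal cord, holds a large share of it.

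The study set 5 treatments of rats side by side: spinal nerve ligation (SNL) with vehicle, SNL with gabapentin, sham surgery with vehicle, naive with gabapentin, and naive with vehicle. In SNL the L5 and L6 spinal nerves of one side were tied, a model of neuropathic pain, and only ligated rats whose paw withdrawal threshold had dropped were kept. Sham rats had these nerves exposed but not tied, and naive rats had no surgery. Gabapentin, an anticonvulsant used against neuropathic pain, was injected at 100 mg/kg daily for 7 days and saline served as vehicle; tissues were taken 19 to 21 days after surgery. Each of the 52 samples was 1 RNA pool of 4 to 6 rats from 1 treatment and 1 of 11 compartments: dorsal root ganglia (DRG) at L4, at L5 and at L6, mid-thigh sciatic nerve and 1 side of the spinal cord, each from the injured (ipsilateral) and the opposite (contralateral) side, and whole brain. Contralateral tissues with no sample here were the sciatic nerve of SNL rats with vehicle, the L5 DRG of naive rats with gabapentin and the L6 DRG of naive rats with vehicle; these were not analysed here. The labels name no strain, sex or age.

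Each sample was hybridised to all 3 arrays, 156 in all. Because a treatment had 1 pool per compartment, both SNL pools, with vehicle and with gabapentin, were set against the 3 pools without ligation (sham, naive with gabapentin, naive) in most compartments. P-values therefore measure the spread between pools across treatments that also differ in surgery and drug, and the number of arrays limits their precision. Signal is the linear brightness of a probe set after quantile normalization within compartment and array type; log2 changes were computed on signal plus a small constant, tested with limma and called at an adjusted p under 0.05. Signals of different probe sets are not on a common scale, so levels were not set against each other between genes. Medians of the deposited arrays ranged from 13 to 62.2 on array A. Tissue labels matched their markers: in the pools without ligation 9 Schwann cell myelin markers summed to 953 to 1020 times the array median in sciatic nerve, against 361 to 419 in DRG, and 10 neuron markers to 31.1 to 38.0 in sciatic nerve, against 817 to 952 in DRG.

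Promoter sequences were available for 5 of the 7 measured genes in the RefSeq table of the rat genome build GRCr8, each 250 bases before to 50 bases after the start of the gene. The windows of Cyp51 and Dhcr7 hold no CCAAT box, a common promoter element. Any link of the box to the changes described below was not tested. The 3 windows that hold this box are printed to show where it lies. They cover chr17:66547475-66547774 (minus strand) for Idi1, chr4:8057720-8058019 (minus strand) for Insig1 and chr2:176804767-176805066 (minus strand) for Fdps, written 5′ to 3′ with each CCAAT box, read on either strand as CCAAT or ATTGG, in capitals.
Idi1: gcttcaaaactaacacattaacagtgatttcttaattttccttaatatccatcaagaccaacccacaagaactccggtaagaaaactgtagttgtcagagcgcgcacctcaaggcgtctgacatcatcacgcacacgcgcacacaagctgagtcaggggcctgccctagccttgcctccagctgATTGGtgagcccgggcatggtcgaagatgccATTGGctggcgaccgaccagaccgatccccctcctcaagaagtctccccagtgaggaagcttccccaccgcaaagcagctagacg
Insig1: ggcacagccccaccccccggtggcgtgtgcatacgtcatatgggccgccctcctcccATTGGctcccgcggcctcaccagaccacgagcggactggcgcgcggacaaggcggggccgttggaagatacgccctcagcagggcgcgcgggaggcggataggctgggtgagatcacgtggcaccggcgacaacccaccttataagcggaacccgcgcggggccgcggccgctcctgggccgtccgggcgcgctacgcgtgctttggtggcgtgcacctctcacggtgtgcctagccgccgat
Fdps: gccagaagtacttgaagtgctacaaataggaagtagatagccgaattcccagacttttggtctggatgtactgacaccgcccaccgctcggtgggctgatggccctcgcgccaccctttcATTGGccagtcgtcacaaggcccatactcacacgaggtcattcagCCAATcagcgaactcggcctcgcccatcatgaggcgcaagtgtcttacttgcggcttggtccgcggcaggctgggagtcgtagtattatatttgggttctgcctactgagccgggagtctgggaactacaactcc
Idi1 had 2 CCAAT boxes, starting 66 and 35 bases before the start of the gene, and Insig1 had 1 at 193 bases before it. In the Fdps window 2 boxes lay 130 and 85 bases before the start. The promoters of Cyp51 and Dhcr7 held none, while 37.5% of 33469 rat promoters of the same length held at least 1. The letters TCACNCCAC, a form of the sterol regulatory element that SREBP binds, were searched on both strands and were present in none of these 5 windows and in 1.12% of all promoters. A GC box, GGGCGG on either strand, was found in the windows of Insig1, Cyp51, Fdps and Dhcr7, but not in that of Idi1, and in 33.1% of all promoters; no match of 1 motif overlapped a match of another in these windows. A match describes letters in this window only.

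In the ipsilateral sciatic nerve, 6 of the 7 genes fell with ligation and none rose. Idi1, Fdps, Fdft1, Sqle, Cyp51 and Insig1 were lower by 2.45-fold to 5.91-fold in the ligated pools, and the seventh, Dhcr7, was 1.71-fold lower with an adjusted p of 0.0692. Over all 16925 probe sets tested in that nerve, 2.62% were called lower and 2.25% higher. The median log2 change of the 7 genes was -2.16, against 0.02 over all probe sets. Of their 25 probe sets, 18 were called lower, none higher, and all 25 had a log2 change below 0. Of the probe sets called in either direction 46.1% were higher, against 70.6% under the deposited scaling. This stretch of nerve lies downstream of the tied L5 and L6 spinal nerves and also carries fibres of L4, which was not tied.

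Idi1, which turns isopentenyl diphosphate into its allylic isomer, had a signal of 59.15 in SNL and 66.3 in SNL with gabapentin, against 550.2 in sham, 209.9 in naive with gabapentin and 545.3 in naive pools. Both ligated pools were far below the others, and the naive pool with gabapentin was the lowest of those without ligation. The Idi1 log2 change was -2.56 (SE 0.41, adjusted p = 0.0155). Fdps, farnesyl diphosphate synthase, which builds the last precursor shared by sterols and prenylated proteins, had 123.45 and 145.7 in the SNL and SNL with gabapentin pools, against 284.2 in sham, 442.7 in naive with gabapentin and 422.2 in naive. Its groups did not overlap, with the sham pool nearest to the ligated ones. The log2 change of Fdps was -1.45 (SE 0.23, adjusted p = 0.0165).

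Fdft1, squalene synthase, commits the pathway to sterols. The Fdft1 signal read 105.2 in the SNL pool and 108.2 in the SNL pool with gabapentin, against 214.2 in sham, 310.4 in naive with gabapentin and 297.7 in naive pools. The ligated pools lay close together and below every other pool, a log2 change of -1.29 (SE 0.21, adjusted p = 0.0166). The Fdft1 probe set shown here, on array C, had a smaller change than 4 on array A, whose log2 changes were -2.19, -2.37, -2.71 and -2.46 and all passed the test. Sqle, squalene epoxidase, which adds the oxygen needed to close the sterol ring, had 64.6 and 62.6 in the SNL and SNL with gabapentin pools, against 328.4 in sham, 288.0 in naive with gabapentin and 300.2 in naive. Its groups lay far apart, with a mean of 63.6 ± 1.44 (SD, n = 2) in ligated and 305.6 ± 20.7 (SD, n = 3) in other pools and a log2 change of -2.16 (SE 0.17, adjusted p = 0.00251).

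Cyp51, the lanosterol demethylase and first step of ring trimming, had a signal of 130.15 in SNL and 158.9 in SNL with gabapentin, against 675.9 in sham, 601.7 in naive with gabapentin and 717.7 in naive pools. That was a log2 change of -2.16 (SE 0.18, adjusted p = 0.00251), and 3 of the 5 Cyp51 probe sets passed the test. Dhcr7, the reductase of the final step of one branch, had 68.0 and 75.3 in the SNL and SNL with gabapentin pools, against 107.2 in sham, 138.3 in naive with gabapentin and 136.5 in naive. Its ligated pools were the lowest 2, but the log2 change of -0.77 (SE 0.19, adjusted p = 0.0692) did not pass the test, nor did that of its other probe set, -1.15 (adjusted p = 0.119).

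Insig1, which anchors the SREBP escort SCAP in the endoplasmic reticulum and is itself switched on by SREBP, had a signal of 71.3 in SNL and 83.3 in SNL with gabapentin, against 379.96 in sham, 360.4 in naive with gabapentin and 479.1 in naive pools. The log2 change of -2.30 (SE 0.20, adjusted p = 0.00251) went the same way as those of the enzymes, and 3 of its 4 probe sets were called lower. For all 7 genes the highest ligated pool was below the lowest pool without ligation, an arrangement that 19.3% of all probe sets in this nerve also had.

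**Figure D1:**
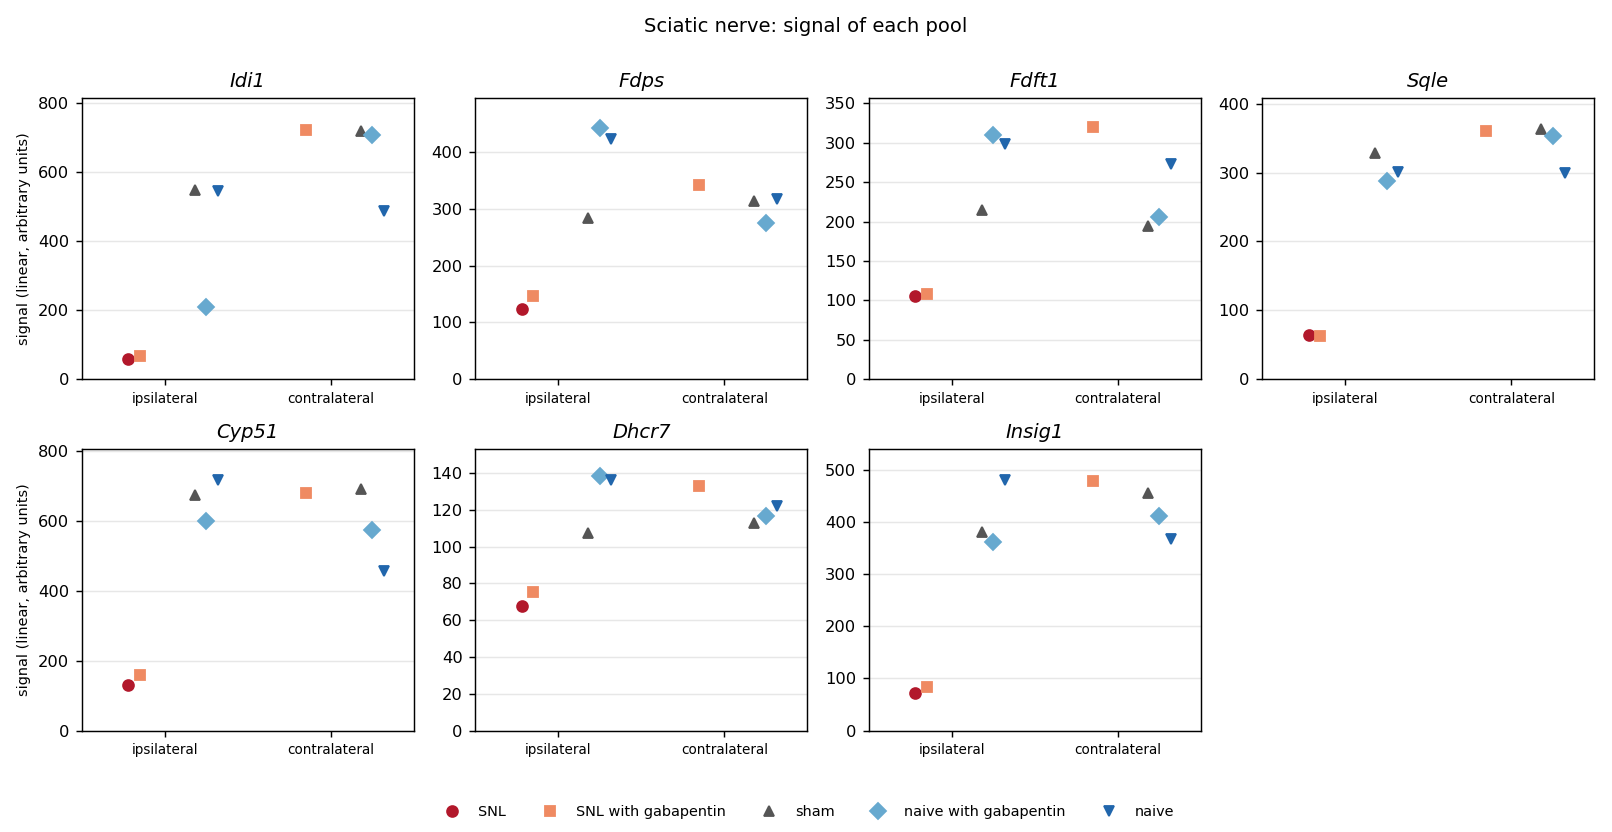
Signal of the 7 genes in every sciatic nerve pool; each panel is 1 gene, the y axis is linear signal after normalization within each side, and symbols mark the treatments, ligated pools drawn left of the others. On the ipsilateral side the SNL and SNL with gabapentin pools lie below all others for every gene. Sqle, for example, has 64.6 and 62.6 against 288.0 to 328.4. On the contralateral side the 1 ligated pool measured is not below the rest on this scale. As signal over the array median it is the lowest for Idi1, Insig1, Sqle, Fdps and Dhcr7, but not for Cyp51 or Fdft1.

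These calls rested on few pools. Without the SNL pool, which left 1 ligated pool assumed to vary like the others, no probe set in this nerve passed the test; the 7 log2 changes were then -2.49 to -0.71, and the 3 lowest adjusted p were 0.0649. Without the naive pool 3 genes were called, where 207 of all probe sets were called lower and 197 higher. Without the sham pool all 7 were called, where 537 of all probe sets were lower and 469 higher. Without the naive with gabapentin pool 252 probe sets were called lower and 297 higher, and the 7 log2 changes were -3.02 to -0.71. Leaving out the SNL with gabapentin pool, which also left 1 ligated pool, gave log2 changes of -2.64 to -0.84. Markers of other cell types were read in the same pools. Summed signals of 9 Schwann cell myelin markers were 12092 to 12681 in ligated and 18502 to 20000 in other pools, and 3 of the 9, Prx, Mal and Ugt8, fell. Summed fat cell markers (7 on the arrays, 1 of them never above the filter) were 1348 to 1689 in ligated and 2547 to 3815 in other pools, with 3 of 6 tested lower. Skeletal muscle markers summed to 771 to 7280 in ligated and 7940 to 16931 in other pools, with 0 of 9 called. Macrophage markers summed to 3139 to 3281 in ligated and 1552 to 3088 in other pools, with 0 of 9 called. The mean of the muscle, the fat or, added after seeing the data, the myelin markers was then used as a covariate. None of the 7 genes was called, but over all probe sets of this nerve these fits called only 2, 0 and 0. Such counts cannot set the 7 genes apart from other probe sets. The 7 log2 changes were -2.35 to -0.64, -2.72 to -1.08 and -4.92 to 0.02, in the same order. In pooled tissue, fewer cells of a type and less RNA per cell cannot be told apart. The 3′ to 5′ signal ratio of the GAPDH control, a sign of RNA quality, was 1.92 and 1.61 in the ligated pools and 3.80, 1.60 and 7.38 in sham, naive with gabapentin and naive pools; its part in the result was not tested.

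In the contralateral sciatic nerve none of the 7 genes was called. The 1 ligated pool measured there was SNL with gabapentin. Its Idi1 signal was 722.9, against 719.75 in sham, 709.5 in naive with gabapentin and 488.45 in naive pools. Its Sqle signal was 360.0, against 363.4, 353.15 and 299.3 in sham, naive with gabapentin and naive pools. The order of these pools depended on the scaling. As signal over the array median, the ligated pool was the lowest for Idi1, Insig1, Sqle, Fdps and Dhcr7. For Cyp51 it was above the naive pool only, and for Fdft1 it was the highest. The log2 changes below were computed on the normalized signal. All 7 log2 changes there were above 0, between 0.09 and 0.52, and 0 of 7 were called, as were 0% of all probe sets, with 779 at an unadjusted p under 0.05. Setting the ipsilateral against the contralateral change, a comparison added after seeing the data with 1 ligated pool, gave differences of -2.68 to -0.88, all below 0. None was called (adjusted p 0.181 to 0.410), nor was any probe set (0%); 1916 probe sets, the 7 genes among them, had an unadjusted p under 0.05.

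The rest of the sterol pathway was read in the same nerve from lists of other genes. Of 14 other cholesterol synthesis enzymes, 12 were tested, 9 fell and none rose, with a median log2 change of -1.34. Lss, which closes the sterol ring, had signals of 75.0 and 80.8 in SNL and SNL with gabapentin pools, against 281.5, 368.7 and 352.0 in sham, naive with gabapentin and naive pools (log2 change -2.01, adjusted p = 0.00307). Msmo1, a sterol methyl oxidase, changed by -1.93, Tm7sf2, a sterol reductase, by -1.88, and Acat2, which makes acetoacetyl-CoA at the head of the pathway, by -1.75. Nsdhl, a sterol dehydrogenase, changed by -1.61, and Pmvk, the phosphomevalonate kinase, by -1.35; the other 3 called were Mvk, Mvd and Sc5d. Hsd17b7 (-1.22, adjusted p = 0.0644), Ebp (-0.74, adjusted p = 0.0601) and Lbr (0.28, adjusted p = 0.754) were not called. Fatty acid synthesis enzymes also fell, 5 of 8 tested and none higher, with a median of -1.57: Me1, malic enzyme, by -1.81, Acss2, acetyl-CoA synthetase, by -1.78, Elovl6, a fatty acid elongase, by -1.77, Acaca, acetyl-CoA carboxylase, by -1.60, and Fasn, fatty acid synthase, by -1.54 on the log2 scale.

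Genes that sense or regulate sterols were a further list. Of 9 tested, 1 fell: Stard4, a sterol carrier, with a log2 change of -1.20 (adjusted p = 0.0242). The SREBP genes themselves were not called; Srebf2 had a log2 change of -0.76 (adjusted p = 0.0733) and Srebf1 one of 0.73 (adjusted p = 0.142). Among genes that carry, export or store cholesterol, 3 of 18 tested rose and none fell. Lipa, the lysosomal lipase that frees cholesterol from its esters, had signals of 616.6 and 619.4 in SNL and SNL with gabapentin pools, against 169.2, 95.0 and 75.6 in sham, naive with gabapentin and naive pools, a log2 change of 2.47 (adjusted p = 0.00747). Apod, a lipid carrier of glia, changed by 1.67 (adjusted p = 0.00478). Its probe set was the brightest on both ligated arrays, so quantile normalization gave it the same signal there and no spread within that group. The deposited Apod signals were 7659.6 and 5925.8 in SNL and SNL with gabapentin pools, against 1787.0, 3179.7 and 1738.7 in sham, naive with gabapentin and naive pools, and the change was 1.65 under the deposited scaling (adjusted p = 0.00236) and 1.47 with arrays scaled to their medians (adjusted p = 0.0150). Abca1, the exporter of cholesterol to lipoproteins, changed by 1.01 (adjusted p = 0.0233). In the isoprenoid branch, 1 of 7 tested genes fell, Fnta, a subunit of protein farnesyltransferase, by 0.90 on the log2 scale (adjusted p = 0.0307). Leaving out the SNL pool ended each of these calls too.

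**Figure D2:**
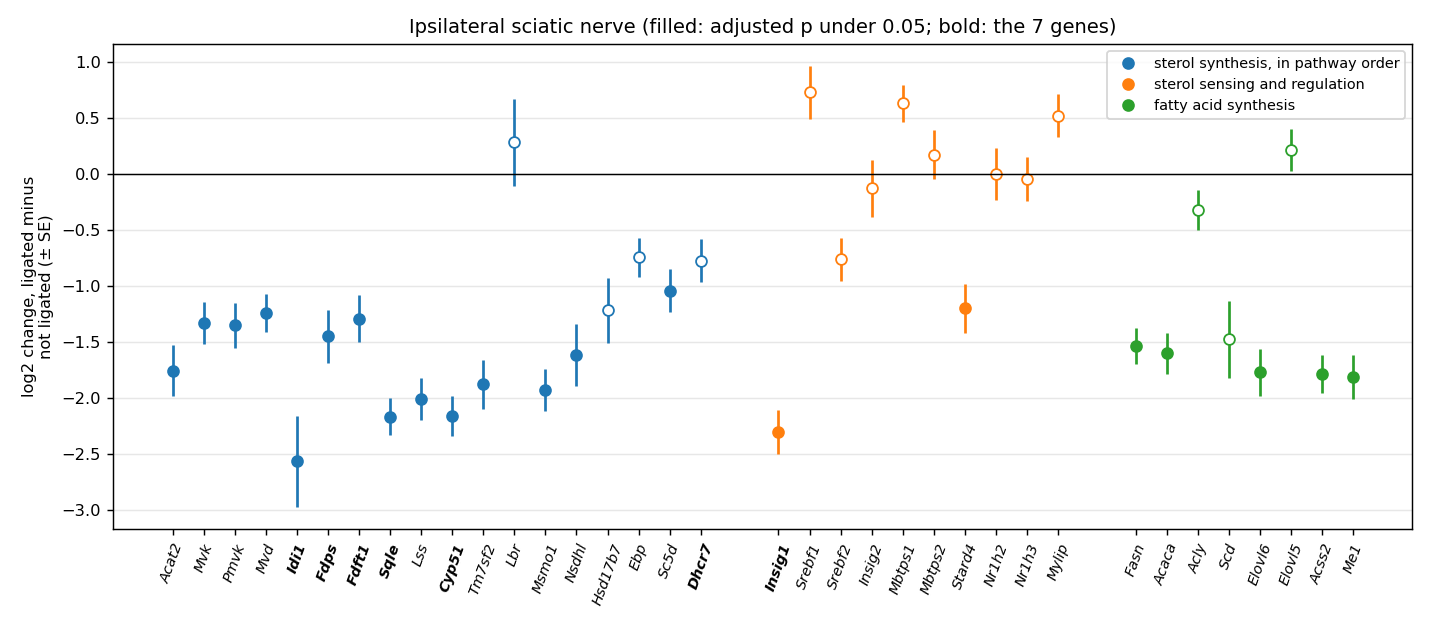
Log2 change (ligated minus not ligated, ± SE) in the ipsilateral sciatic nerve for sterol synthesis enzymes in pathway order, genes of sterol sensing and regulation, and fatty acid synthesis enzymes; filled points passed an adjusted p under 0.05, and the 7 genes are in bold. Sterol enzymes from Acat2 to Sc5d lie mostly between -1.04 and -2.56. The 9 regulators other than Insig1 have a median of 0.00, and Insig1, drawn with them, lies within the range of the enzymes.

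In the ipsilateral L5 DRG, whose spinal nerve was tied, 3 of the 7 genes fell, Sqle, Cyp51 and Insig1, by 1.35-fold to 1.62-fold. Over all probe sets of that ganglion 8.88% were called lower and 6.75% higher, so that 43.2% of the called ones were higher, against 15.2% under the deposited scaling. Sqle had signals of 245.9 in SNL and 243.2 in SNL with gabapentin, against 406.3 in sham, 393.5 in naive with gabapentin and 402.8 in naive pools. The ligated pools were nearly equal and clear of the others, a log2 change of -0.70 (SE 0.10, adjusted p = 0.00650). Cyp51 had 435.3 and 386.6 in the SNL and SNL with gabapentin pools, against 673.6 in sham, 557.6 in naive with gabapentin and 694.9 in naive (log2 change -0.63, SE 0.13, adjusted p = 0.0206). Insig1 had 365.3 and 377.8 in the SNL and SNL with gabapentin pools, against 456.1 in sham, 520.4 in naive with gabapentin and 536.3 in naive (log2 change -0.43, SE 0.12, adjusted p = 0.0452).

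The other enzymes did not pass the test in that ganglion. Fdps had a log2 change of -0.29 (adjusted p = 0.117) and Fdft1 of -0.14 (adjusted p = 0.398), while 2 Fdft1 probe sets on array A were called lower, at -0.82 and -0.75. Idi1, at 0.17, and Dhcr7, at 0.10, lay slightly above 0 with overlapping groups. Of the 25 probe sets 10 were called lower and none higher, and 5 of the 7 genes had groups that did not overlap with the ligated pools lower, as did 26% of all probe sets in this ganglion. Sqle was called with any 1 pool left out, but Cyp51 and Insig1 were not called without either ligated pool, nor was Cyp51 without the sham pool, nor Insig1 without the naive or the naive with gabapentin pool. Neuron markers summed to 17819 to 19671 in ligated and 27294 to 28820 in other pools, with 5 of 10 lower, and macrophage markers to 4142 to 4441 in ligated and 857 to 1437 in other pools, with 8 of 9 higher. Astrocyte and satellite glia markers summed to 2599 to 3221 in ligated and 4105 to 4373 in other pools, with 2 of 5 lower. Fibroblast and perineurial markers summed to 7118 to 10452 in ligated and 4817 to 5840 in other pools, with 2 of 5 higher, and 2 of 6 oligodendrocyte, 1 of 9 Schwann cell myelin and 1 of 3 endothelial markers were called higher. Skeletal muscle markers summed to 3148 to 9475 in ligated and 528 to 4420 in other pools, with 0 of 10 called. No fat cell marker was called. The GAPDH 3′ to 5′ ratio was 1.01 and 1.05 in SNL and SNL with gabapentin pools and 1.13 to 1.26 in the other pools. With the muscle marker mean as a covariate, 1039 probe sets of this ganglion were called lower and 852 higher. The part of the other markers and of RNA quality in the result was not tested.

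Elsewhere in the sterol lists the same ganglion showed few changes. Nsdhl fell by 0.48 (adjusted p = 0.0365), 1 of 11 other synthesis enzymes tested. Of 9 fatty acid enzymes, Scd, the desaturase that makes oleate, fell by 0.76 (adjusted p = 0.00811) and Elovl5, an elongase, by 0.64 (adjusted p = 0.0126). Among carriage and breakdown genes 4 of 18 rose, Tspo, a mitochondrial cholesterol-binding protein, by 1.49, Cyp7b1, an oxysterol hydroxylase, by 1.40, Apod by 1.28 and Pltp, a phospholipid transfer protein, by 1.18 on the log2 scale, each at an adjusted p under the threshold. Mylip, which marks the LDL receptor for breakdown, rose by 0.60 (adjusted p = 0.0427). Lipa fell by 1.13 in this ganglion (adjusted p = 0.00557), with signals of 192.8 and 212.2 in SNL and SNL with gabapentin pools, against 454.1, 375.7 and 530.6 in sham, naive with gabapentin and naive pools. Lipa was higher with ligation in the sciatic nerve and lower in the ganglion, and the difference of 3.60 (SE 0.39) passed the test (adjusted p = 0.0123).

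**Figure D3:**
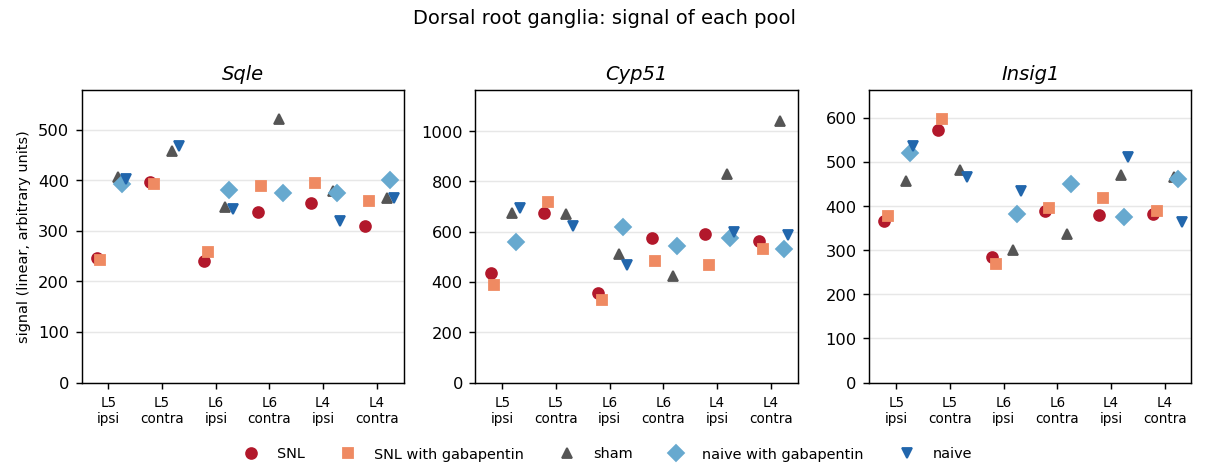
Signal of Sqle, Cyp51 and Insig1 in every DRG pool by level and side, linear signal normalized within each compartment, with ligated pools left of the others. In the ipsilateral L5 ganglia both ligated pools lie below the rest, for example Sqle at 245.9 and 243.2 against 393.5 to 406.3. On the contralateral side at L5 the ligated pools are below the others for Sqle (396.1 and 393.2 against 457.7 and 467.25) but above them for Insig1.

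L6 was tied as well, but 0 of the 7 genes were called in its ipsilateral ganglion, where 4.22% of probe sets were lower and 4.37% higher (50.9% of the called ones higher, against 27.9% under the deposited scaling). Cyp51 had signals of 354.6 and 327.3 in SNL and SNL with gabapentin pools, against 510.7, 619.3 and 465.5 in sham, naive with gabapentin and naive pools, a log2 change of -0.62 (SE 0.17, adjusted p = 0.0667). Sqle had 239.5 and 258.5 in SNL and SNL with gabapentin pools, against 346.4, 381.4 and 342.6 in sham, naive with gabapentin and naive pools (-0.51, SE 0.15, adjusted p = 0.0824). Insig1 had a log2 change of -0.40 (adjusted p = 0.240), and 1 of its other probe sets passed the test at -0.75, the only called one of 25. In this ganglion Tspo rose by 2.01, Apod by 1.51, Pltp by 1.35 and Mylip by 0.84 on the log2 scale, all past the threshold, whereas 0 of 11 other synthesis enzymes and 0 of 9 fatty acid enzymes tested were called. Macrophage markers summed to 3697 to 4982 in ligated and 700.0 to 1067 in other L6 pools, with 8 of 9 higher, and neuron markers to 12483 to 14685 in ligated and 22337 to 24232 in other pools, with 5 of 10 lower. Fibroblast and perineurial markers were called higher in 2 of 5, oligodendrocyte markers in 1 of 7, and astrocyte and satellite glia markers lower in 1 of 5. The GAPDH ratio was at most 1.10 in the ligated pools and 1.21 to 1.49 in the other pools; the part of these values in the L6 changes was not tested.

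No member was called in any other compartment. The log2 changes of the 7 genes lay between -0.32 and 0.24 in the ipsilateral L4 DRG, where 0.0418% of probe sets were called in either direction, and between -0.37 and 0.13 in the contralateral L4 DRG, with 0% called. They lay between -0.23 and 0.30 in the contralateral L5 DRG (0.00612% called) and between -0.28 and 0.45 in the contralateral L6 DRG (0.0729% called). In the ipsilateral spinal cord they lay between -0.32 and 0.18, in the contralateral cord between -0.51 and 0.15 and in brain between -0.66 and 0.06, with 0% of probe sets called in each. The extremes in the contralateral cord and in brain were both Idi1, whose brain signal was 58.9 and 54.0 in SNL and SNL with gabapentin pools, against 86.7, 91.1 and 100.8 in sham, naive with gabapentin and naive pools. Its brain change of -0.66 had an unadjusted p of 0.00164 and an adjusted p of 1.00, and the limma fits for cord and brain called no probe set although 454 (ipsilateral cord), 834 (contralateral cord) and 433 (brain) had an unadjusted p under 0.05.

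**Figure D4:**
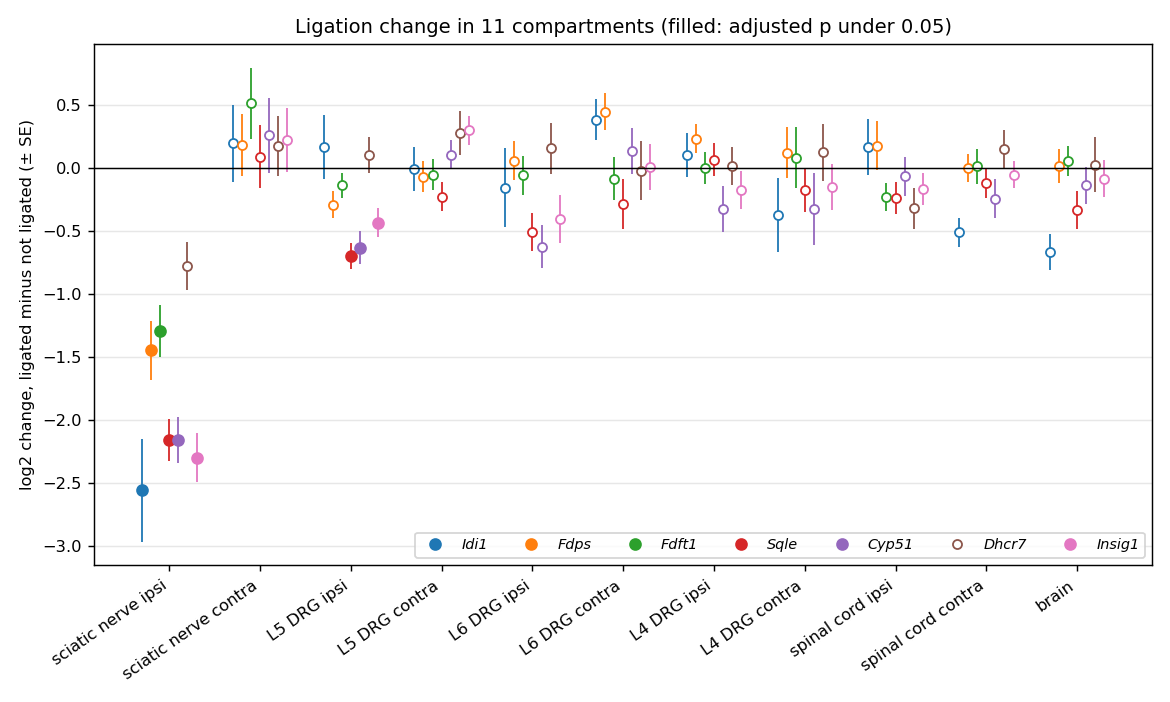
Log2 change (ligated minus not ligated, ± SE) of the 7 genes in the 11 compartments; filled points passed an adjusted p under 0.05. The ipsilateral sciatic nerve stands at -2.56 to -0.77, the ipsilateral L5 DRG at -0.70 to 0.17, and every other compartment within -0.66 and 0.52.

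Whether the nerve changed more than other tissues was tested on differences between compartments, taken within each treatment on the log2 scale. Relative to the L5 DRG, the ligation change in the nerve was more negative for Insig1 by 1.87 (adjusted p = 0.0215), for Sqle by 1.46 (adjusted p = 0.0316) and for Cyp51 by 1.53 (adjusted p = 0.0338), 3 of 7, while 1.97% of probe sets were called in either direction. All 7 differences were below 0, from -2.73 for Idi1 (adjusted p = 0.0862) to -0.88 for Dhcr7. Relative to the ipsilateral cord, the same 3 genes were called, 0.38% of probe sets being called: Insig1 at -2.14, Cyp51 at -2.10 and Sqle at -1.93, each with an adjusted p of 0.0405. With any 1 treatment left out, 0 genes were called against the cord and 0 against the L5 DRG, except that 2 were called there without naive with gabapentin. Both differences share the ipsilateral nerve pools. None of the 7 genes was called in L5 against contralateral L5, L6 against contralateral L6, L4 against contralateral L4, cord against contralateral cord or L5 against L4 (0% of probe sets each), nor in L6 against L4 (0.0228%).

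Gabapentin was examined with ligation as a covariate, 2 pools with the drug against 3 without. No member was called in any of the 8 compartments with all treatments, nor over their mean, where the 7 log2 changes lay between -0.14 and 0.13. The fits called 0% of probe sets in each of these comparisons except the contralateral cord (0.00603%), and at an unadjusted p under 0.05 they listed 206 to 833 probe sets. In the ipsilateral nerve the largest member change was that of Idi1, -0.71 (SE 0.35), with an unadjusted p of 0.0794; Sqle had -0.09 (SE 0.19) and Cyp51 0.00 (SE 0.21).

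Levels across tissues were read in the 3 treatments without ligation, as signal over the median of its array and averaged over levels and sides. All 7 genes were called lower in brain than in spinal cord, where 7.96% of probe sets were called lower and 8.68% higher. Single pools overlapped for Fdps, with 6.44 times the array median in the ipsilateral cord and 7.29 in the brain of naive rats. Idi1 was 2.68, 2.98 and 3.54 times the array median in brain of sham, naive with gabapentin and naive rats, against 10.6, 11.9 and 8.33 in their cord, a log2 difference of -1.63 (SE 0.20, adjusted p = 6.91e-05). Cyp51 averaged 8.53 ± 2.04 in brain and 27.0 ± 4.88 in cord (SD, n = 3 each; log2 difference -1.63). For Sqle the means were 4.57 ± 0.37 in brain and 12.2 ± 1.81 in cord (-1.36), and for Insig1 5.82 ± 1.38 in brain and 13.7 ± 0.96 in cord (-1.22). Dhcr7 differed by -1.15, Fdps by -0.83 and Fdft1 by -0.49, the last with an adjusted p of 0.0134, and 23 of the 25 probe sets were called lower.

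The same direction held for 9 of 12 other synthesis enzymes, among them Tm7sf2 (-1.48), Acat2 (-1.43), Hsd17b7 (-1.34), Lss (-1.28), Msmo1 (-1.03) and Mvk (-0.79), and for 8 of 9 fatty acid enzymes, led by Scd (-2.05), Elovl5 (-1.21) and Me1 (-1.10). None of 12 regulators was called in brain against cord; Srebf2 stood at 0.28 and Srebf1 at 0.03. Of 18 genes that carry, export, store or break down cholesterol, 1 was called higher in brain and 3 lower, with a median of -0.15. The 1 higher was Cyp46a1, the neuronal hydroxylase that clears cholesterol from brain, by 1.49 (adjusted p = 4.39e-06). Oligodendrocyte markers summed to 230 to 290 times the array median in brain and 375 to 458 in cord, with 7 of 8 lower in brain. Schwann cell myelin markers summed to 202 to 264 in brain and 479 to 538 in cord. Fibroblast and perineurial markers summed to 14.8 to 20.3 in brain and 61.6 to 68.3 in cord, with 4 of 5 lower. Astrocyte and satellite glia markers were lower in 3 of 6 and higher in 1, and endothelial markers lower in 2 of 5. Of 10 neuron markers 3 were higher and 4 lower, and of 9 macrophage markers 1 was lower. No muscle or fat cell marker was called. The part of these markers in the difference was not tested. The brain sample was the whole organ.

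The nerve values set against DRG and cord depended on array scaling. Relative to DRG, 3 of 7 genes were called higher in nerve, Idi1 by 1.63, Cyp51 by 0.63 and Insig1 by 0.51, where 26.9% of probe sets were called higher and 20.8% lower; under the deposited scaling Idi1 alone was called higher, Cyp51 and Insig1 fell below 0 (-0.10 and -0.22), and 3 genes were called lower. Relative to cord, Idi1 was higher in nerve by 1.29, Insig1 by 0.53 and Fdps by 0.44, where 29.8% of probe sets were higher and 19.3% lower; with the deposited scaling or quantile normalization over all arrays only Idi1 was called higher and 3 genes were called lower. With treatment as a block Fdps was not called in nerve against cord (adjusted p = 0.0567) and Sqle was, higher by 0.37 (adjusted p = 0.0345). Idi1 was thus the 1 gene called higher in nerve under all 3 scalings, with 33.2, 22.9 and 22.6 times the array median in nerve of sham, naive with gabapentin and naive rats, against 7.19, 8.82 and 8.10 in their DRG. Muscle markers summed to 386 to 1171 times the array median in nerve, 15.3 to 85.2 in DRG and 17.7 to 20.7 in cord. Fat cell markers summed to 111 to 240.0 in nerve, 16.9 to 18.1 in DRG and 14.9 to 19.6 in cord. For fibroblast and perineurial markers the sums were 538 to 595 in nerve, 137 to 158 in DRG and 61.6 to 68.3 in cord. Macrophage markers had 85.2 to 182 in nerve, 25.5 to 35.8 in DRG and 29.2 to 39.3 in cord. Neuron markers went the other way, with 31.1 to 38.0 in nerve, 817 to 952 in DRG and 412 to 459 in cord. The GAPDH 3′ to 5′ ratio in these pools was 1.60 to 7.38 in nerve, 1.13 to 3.16 in DRG and 1.03 to 1.36 in cord; the part of these values in the tissue differences was not tested. Cord differed from DRG for Fdps, lower by 0.82 (adjusted p = 0.00221), where 16.6% of probe sets were lower and 9.89% higher. Deposited scaling moved the median of all probe sets in nerve minus DRG to -0.50, in nerve minus cord to -0.65, in brain minus cord to -0.20 and in cord minus DRG to 0.13, and the share of called probe sets that were higher to 17.8%, 13.1%, 25.7% and 62.1% in these 4 comparisons, against 56.5%, 60.7%, 52.2% and 37.4% with the array median. Brain stayed lower than cord for all 7 genes under all 3 scalings.

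**Figure D5:**
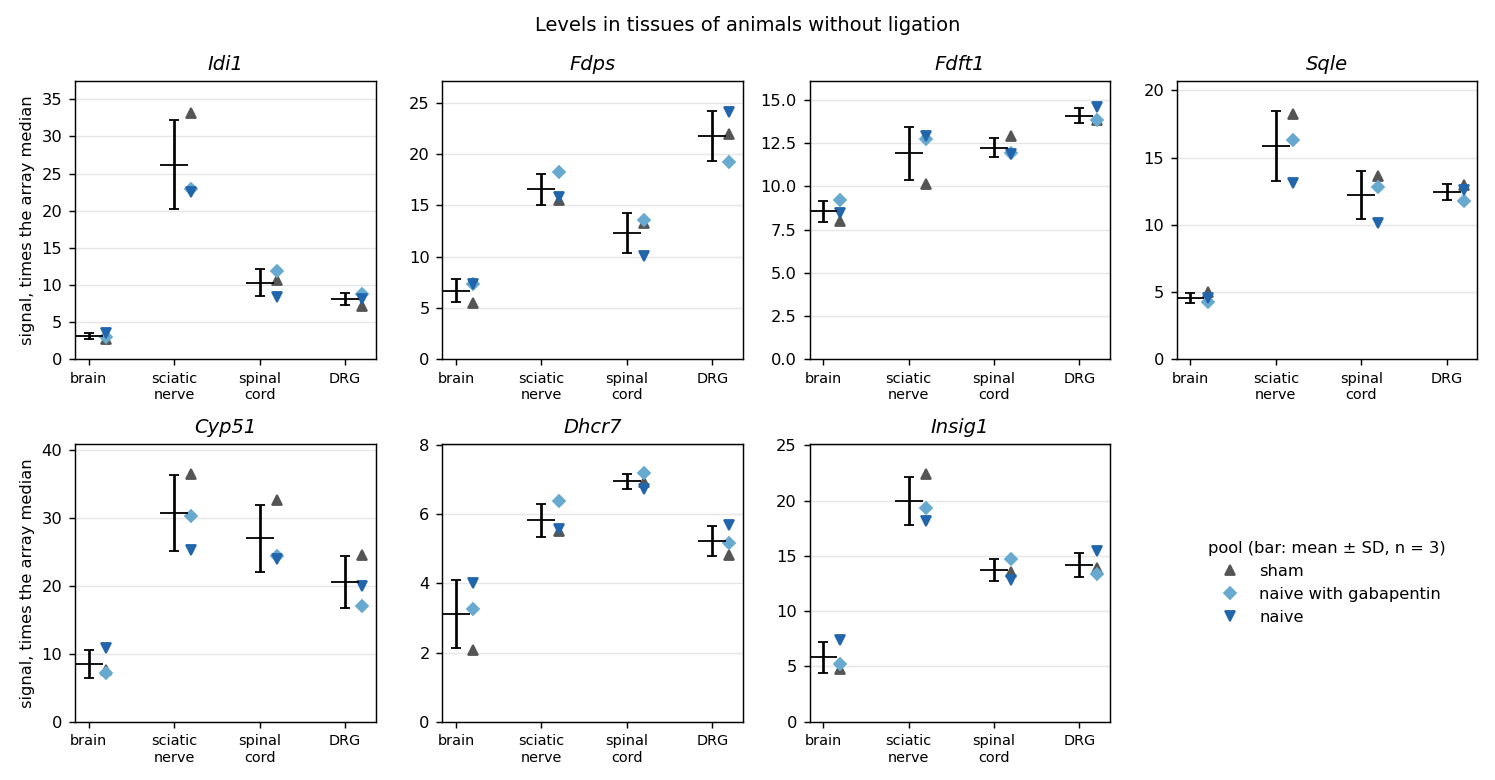
Level of the 7 genes in 4 tissues of rats without ligation, as signal over the median of its array. Symbols are the 3 treatments, each a mean of its pools over DRG levels and sides, and bars are the mean ± SD (n = 3). Brain is the lowest tissue for every gene, and Idi1 stands highest in sciatic nerve, at 22.6 to 33.2 against 8.33 to 11.9 in cord.

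Pairs of the 7 genes were also compared across the 52 samples. After each gene's log2 values were centred on their compartment mean, Pearson's r between the 21 pairs of genes had a median of 0.68 and a range of 0.29 (Idi1 with Dhcr7) to 0.88 (Insig1 with Cyp51). Without the 5 ipsilateral nerve pools the median was 0.10, with a range of -0.33 to 0.58, the highest again Insig1 with Cyp51. Insig1 with Sqle had 0.85 over all samples and 0.31 without those pools. These values describe samples that share arrays and pools, and genes on 1 array share its errors. The 10 genes whose pattern was most like the mean of the 7 over the 52 samples were Elovl6 (r = 0.90), Lss (0.89), Me1 (0.87), Acat2 (0.87), Cyb5r2 (0.86), Fez1 (0.86), Mgll (0.86), Msmo1 (0.85), Arvcf (0.85) and Tm7sf2 (0.85). Over the other 47 samples their r lay between 0.08 and 0.55, highest for Elovl6.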

How the data were processed

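RNA pools of 52 tissue and treatment combinations were measured on Affymetrix rat U34 arrays A, B and C. The deposited values are linear intensity per probe set, made with MAS5 per the submitters' processing notes; no source used here gives its version, a scaling target or detection calls. From these, arrays of each set were quantile normalized within a compartment, because their 2% trimmed means differed by over 1.25-fold (up to 4.66-fold on array B). Log2 was taken of signal plus the 20th percentile of a set (5.8, 4.5 and 6.2 for A, B and C), so folds of weak genes are understated. Probe sets over the 40th percentile of their array in 2 or more of the samples compared were kept; controls were left out. Tests used limma 3.58.1 in R 4.3.3 (lmFit, eBayes with trend), two-sided, with Benjamini-Hochberg adjustment over all kept probe sets; the code was tested on simulated data. Whether compartments of a treatment came from the same rats is not given.

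Of 26379 probe sets, 18178 carried 1 symbol, 391 several and 7633 none; 18122 symbols were updated through a RefSeq table (GRCr8). The brightest probe set, by mean log2 value over the 52 samples, stands for a gene. From each gene list up to 6 genes past the threshold with the largest change were named, others only as examples; the 10 most similar genes were ranked by Pearson's r. The genes, lists and tests were chosen with earlier results of these data known. Each group of the ligation comparison mixes vehicle and gabapentin pools; the contralateral L5 DRG has no unligated gabapentin pool. Alternatives tried were 3 other scalings, a pseudocount 4 times larger, no filter, 1 spread over compartments, marker covariates, all probe sets of a gene, left-out pools and, for tissues, treatment as a block and ipsilateral samples only.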

Additional observations from a re-analysis of the deposited data

Results flagged for a closer look

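The change with ligation differed between tissues for 3 genes by a test of the difference itself (limma, 2 ligated against 3 other treatments, both tissues from the same treatments). Between the ipsilateral sciatic nerve and the ipsilateral L5 DRG, the log2 changes differed by -1.87 for Insig1 (adjusted p = 0.0215), -1.46 for Sqle (adjusted p = 0.0316) and -1.53 for Cyp51 (adjusted p = 0.0338). Between the ipsilateral nerve and the ipsilateral spinal cord they differed by -2.14 for Insig1, -2.10 for Cyp51 and -1.93 for Sqle, each with an adjusted p of 0.0405. Without the SNL pools none of these 6 differences was called (adjusted p 0.224 to 0.452). With the sham, the naive or the naive with gabapentin pools left out, 0 genes were called against the cord. Against the L5 DRG, 0 were called without the sham or the naive pools and 2 without the naive with gabapentin pools. Over all probe sets, 1.97% were called in either direction against the L5 DRG and 0.38% against the cord. Groups of 2 or 3 pools were too small to look for single outlying samples.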

How the results depend on the processing

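In the ipsilateral nerve the 7 log2 changes were all below 0 under every scaling tried and with the muscle and fat covariates. With the myelin covariate 6 of 7 were. A larger pseudocount, no filter or a left-out pool also left all 7 below 0, but these settings could not turn the sign. A filter leaves a log2 change as it is, and both ligated pools lay below all others for each of the 7 genes. Without covariates the median lay between -1.92 and -2.30. The count of 6 genes lower became 0 with the muscle, fat or myelin marker mean as a covariate, of which the first called 2 probe sets in all and the other 2 called 0, and 0 to 7 with 1 pool left out; Nsdhl turned to 0.16 with the myelin covariate. In the ipsilateral L5 DRG 1 to 2 of 3 genes were called with 1 pool left out, and with 1 spread over all compartments 2 genes were called in L6. Nerve minus L5 DRG called 1 gene with no filter and 0 to 2 with a treatment left out, against 3; nerve minus cord called 0 with no filter and 0 with any treatment left out, against 3. Deposited scaling called 1 gene in L5 minus L4 DRG and 1 in ipsilateral minus contralateral nerve, against 0 in each. For nerve minus DRG, 1 gene was higher with either other scaling and 1 to 4 with a treatment left out, against 3, and 2 were lower with quantile normalization over all arrays and 3 with deposited scaling, against 0. For nerve minus cord, 1 was higher and 3 lower with either, against 3 and 0, and 1 to 2 were higher with a treatment left out. In cord minus DRG 3 were higher with quantile normalization over all arrays, against 0. Brain minus cord called 5 to 6 of 7 with a treatment left out. Reversed with deposited scaling were Insig1 (-0.22), Cyp51 (-0.10) and Dhcr7 (-0.55) in nerve minus DRG, and Insig1 (-0.23), Cyp51 (-0.58) and Fdps (-0.32) in nerve minus cord; with quantile normalization over all arrays Insig1 (-0.0076), Cyp51 (-0.48) and Fdps (-0.061) in nerve minus cord. The cause of these shifts was not tested, beyond fewer pools or more terms in a fit. Over all probe sets, deposited scaling gave 420 higher and 175 lower in the nerve (main 380 and 444), 469 and 2609 in L5 (1130 and 1487) and 24 and 62 in L6 (738 and 713), moving the median of all probe sets to 0.33, -0.24 and -0.28; scaling to array medians gave 660 and 2055 in L5. With 1 spread the nerve had 1132 and 1216 and L6 1432 and 1366; without a filter the nerve had 272 and 287 and L6 480 and 466. Replicate numbers pair no samples, since each treatment has 1 pool per compartment; treatment as a block, used for the tissue levels, left the counts of members called in all 4 tissue comparisons as they were, but ended the call of Fdps (adjusted p = 0.0567) and made one for Sqle (adjusted p = 0.0345) in nerve minus cord. The ipsilateral minus contralateral nerve difference cannot be computed without its 1 ligated pool.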
